A study of Mus musculus with 15 samples.

Results

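Gene expression in the mouse auditory nerve 7 days after loud noise was compared with that in unexposed control mice. The comparison used 6 of the 15 arrays of the study, 3 per group, chosen by their titles as 7-day noise and control samples. Every mouse was of the CBA/CaJ strain, 5 to 12 weeks old, and kept under a cycle of 12 h light and 12 h dark. The 7-day animals had been exposed for 2 h to octave-band noise (8 to 16 kHz, 106 dB SPL), and the controls had not. Other animals, taken immediately, 1 day or 14 days after the same noise with 3 arrays each, enter below as reference. Their arrays also entered the fit, so standard errors and p-values for 7 days against control rest on the spread of all 15 arrays. With the 6 arrays alone, 1 gene (Dbp) passed an adjusted p of 0.05. Each array held 50 ng of RNA from both ears of 1 animal, so the arrays are separate animals. The labels give no hour of collection. Controls were 3 females, and the 7-day group held 1 male (replicate 1) and 2 females (replicates 2 and 3), so sex and group were partly confounded.

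The tissue was the modiolus, the bony core of the cochlea through which the auditory nerve runs, and its marker genes were high in both groups. Mbp, the myelin basic protein, averaged 13.92 ± 0.09 (SD, n = 3) in controls and 13.94 ± 0.03 (SD, n = 3) at 7 days on the log2 intensity scale. Nefl, the light neurofilament of neurons, averaged 13.43 ± 0.05 (SD, n = 3) and 13.41 ± 0.06 (SD, n = 3). Array medians lay between 5.87 and 5.92 over the study. A probe set is the group of probes that reads 1 transcript, and 34945 of 45101 probe sets named 1 gene. After the lowest 25% of genes by mean level were left out, 13644 of 18193 genes were tested, each by its brightest probe set. The number of arrays limits the precision, and the median standard error of a difference over these genes was 0.0970.

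At 7 days 3 genes passed an adjusted p of 0.05, which is 0.0220% of the genes tested. Dbp and Ciart fell (0.0147% of genes passed in that direction) and Neat1 rose (0.00733%). Dbp, a transcription factor of the PAR bZIP family, and Ciart, a repressor of the circadian clock, are both output genes of that clock. Neat1 is a long noncoding RNA that builds the nuclear bodies called paraspeckles. At an unadjusted p under 0.05, 814 genes were higher and 711 lower, 11.2% of all. Log2 values of the 7-day and control arrays did not overlap for 1741 genes (12.8%), of which 1117 were higher and 624 lower.

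The circadian clock is a feedback loop that runs in most cells. The proteins CLOCK and BMAL1 (gene Arntl) bind a short DNA motif, the E-box, and switch on the Per, Cry and Nr1d genes, whose products later repress the loop. Dbp and related factors bind a further motif, the D-box, and pass the rhythm on to other genes. The cochlea, the auditory nerve included, is known to hold such a clock.

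Dbp had log2 intensities of 10.63, 10.57 and 10.43 in the 3 controls and 8.68, 8.47 and 8.87 at 7 days. Every 7-day array lay well below every control, and the spread within each group was small beside the gap. The difference was -1.87 ± 0.19 (SE; limma, adjusted p = 7.75e-04), a level 3.66-fold lower than in controls. A second Dbp probe set read 9.36, 9.45 and 9.39 in controls and 7.54, 7.86 and 7.90 at 7 days, a difference of -1.63 ± 0.19. Both probe sets of the gene therefore separated the groups in the same direction. In bulk tissue, fewer cells of a type and less RNA per cell cannot be told apart, here and in every result below. No hour of collection is given, so for this and every clock gene below, noise and the hour of collection cannot be told apart.

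Ciart read 8.09, 8.55 and 8.18 in controls and 7.19, 7.09 and 6.99 at 7 days. The groups did not overlap, and the 7-day arrays lay closer together than the controls. The difference was -1.18 ± 0.13 (SE; adjusted p = 0.00107), a 2.27-fold lower level. With sex as a term in the fit, the differences were -1.85 for Dbp and -1.21 for Ciart, and both were still called (adjusted p = 0.00290 for each).

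Neat1 read 9.40, 9.25 and 9.54 in controls and 10.16, 10.07 and 10.20 at 7 days, a rise of 0.75 ± 0.11 (SE; adjusted p = 0.0466). These values did not overlap. A further Neat1 probe set went the opposite way, with 7.09, 7.35 and 7.16 in controls and 6.68, 6.98 and 6.64 at 7 days (-0.43 ± 0.15; adjusted p = 0.359 over all probe sets). The Neat1 call was lost without control replicate 1 (adjusted p = 0.144) or 2 (0.240), without 7-day replicate 2 (0.0962) or 3 (0.203), and with sex as a term (0.0652). The mean over both probe sets was 0.16.

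**Figure D1:**
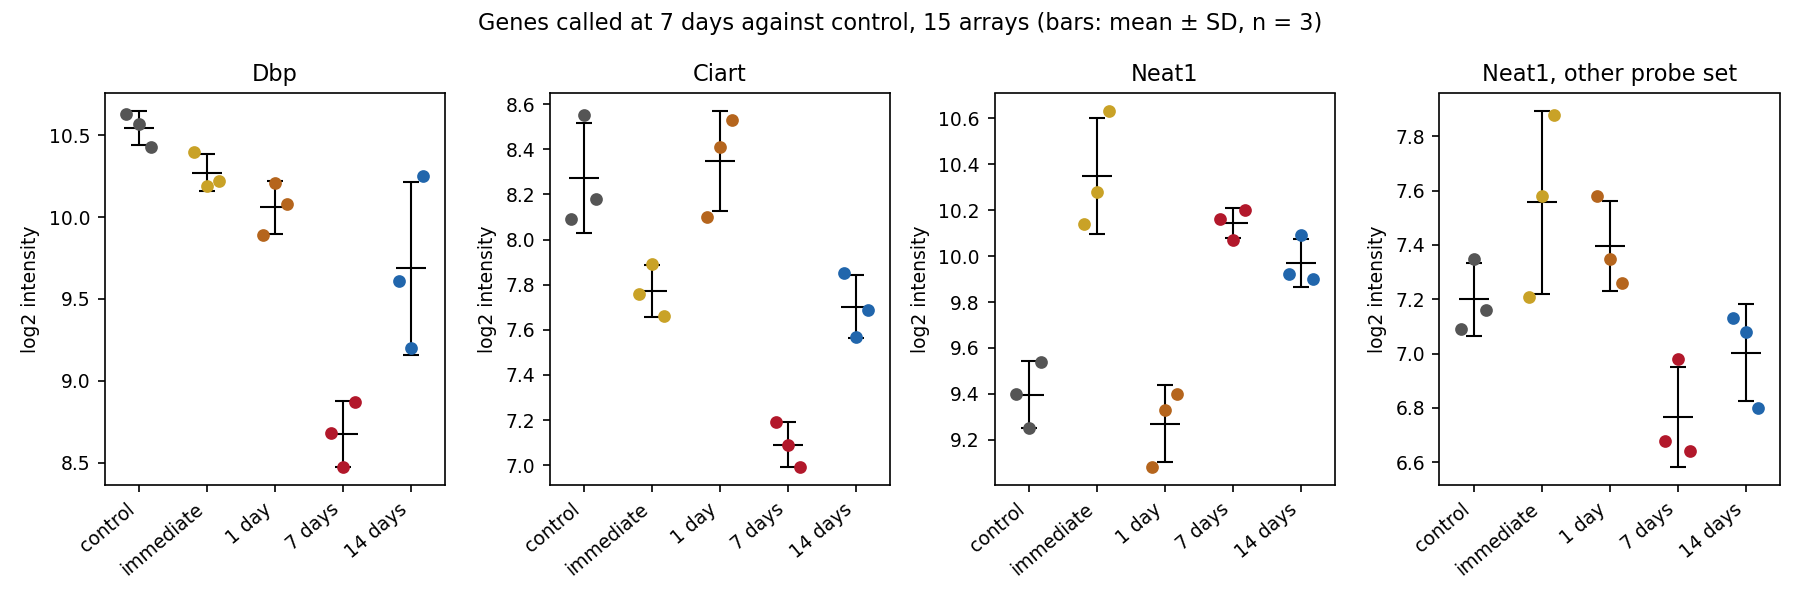
Log2 intensity of Dbp, Ciart and both probe sets of Neat1 on all 15 arrays, by group, with 1 point per animal; horizontal lines and bars give the mean ± SD (n = 3), and the vertical axes differ between panels. Dbp lay between 8.47 and 8.87 at 7 days and between 10.43 and 10.63 in controls, while the Neat1 probe sets moved in opposite directions.

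The DNA before the start sites of the 2 called clock genes is shown because both are known targets of CLOCK and BMAL1 and both were lower. Sequences are from RefSeq (build GRCm38.p6), each of the 250 bases before the annotated start, 5′ to 3′ on the gene's strand, with E-boxes (CACGTG, the same on both strands) in capitals.
Ciart, chr3:95882229-95882478, minus strand: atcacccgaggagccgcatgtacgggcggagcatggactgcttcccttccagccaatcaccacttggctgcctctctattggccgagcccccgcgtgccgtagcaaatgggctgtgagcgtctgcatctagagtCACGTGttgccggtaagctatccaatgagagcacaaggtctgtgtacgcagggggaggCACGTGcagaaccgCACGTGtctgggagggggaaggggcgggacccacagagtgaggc
Dbp, chr7:45704997-45705246, plus strand: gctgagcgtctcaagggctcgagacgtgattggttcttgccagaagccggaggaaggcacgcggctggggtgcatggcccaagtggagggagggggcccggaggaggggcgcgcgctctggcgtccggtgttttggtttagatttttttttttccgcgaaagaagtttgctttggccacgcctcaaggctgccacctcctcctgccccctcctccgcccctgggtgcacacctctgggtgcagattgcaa

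The Ciart sequence holds 3 E-boxes, which begin 116, 58 and 44 bases before the start site. Over windows of 300 bases (250 before to 50 after a start), 29 of 32851 mouse promoters (0.0883%) held at least 3 E-boxes, and 7.15% held at least 1. No E-box lies in the Dbp window, which says only that these letters are absent from that stretch. Of the clock output genes, 15 matched the promoter table, and 5 of these held an E-box in at least 1 promoter. The D-box, searched as TTATGTAA on both strands, lay in 0.938% of all promoters and in the promoter of 1 clock output gene, Per3, which held 2 copies. These matches describe the sequence, and nothing in the arrays measured binding to them.

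The clock output list had 19 tested genes. Dbp and Ciart fell, 0 members rose, and the other 17 did not pass. Counted by sign, 15 of the 19 had a lower mean at 7 days, and the median difference was -0.16, against 0.01 over all genes tested. At an unadjusted p under 0.05, 7 members were lower and 1 was higher, against 5.21% and 5.97% of all genes. Without overlap between groups, 6 were lower and 2 higher, against 4.57% and 8.19% of all genes. The median member, as its difference from the control mean, was -0.26, -0.28 and -0.02 in 7-day replicates 1, 2 and 3, and between -0.04 and 0.03 in the controls.

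The nuclear receptors Nr1d1 and Nr1d2 (REV-ERB alpha and beta) repress Arntl in the secondary loop of the clock. Nr1d2 read 11.87, 11.71 and 11.78 in controls and 11.50, 11.55 and 11.37 at 7 days (-0.31 ± 0.06, adjusted p = 0.143). Nr1d1 read 7.41, 8.49 and 7.92 in controls and 6.56, 7.32 and 6.73 at 7 days (-1.07 ± 0.27, adjusted p = 0.223). In these probe sets the 7-day values of both genes lay below all controls. Control values of Nr1d1 spread over more than 1 log2 unit. A dimmer Nr1d2 probe set differed by -0.18 ± 0.12, and its groups overlapped. Rora, the activator that competes with these repressors, differed by -0.12 ± 0.07 in its brightest probe set, where the groups overlapped. One of its 8 dimmer probe sets read 8.37, 8.57 and 8.43 in controls and 7.93, 7.93 and 7.88 at 7 days, and passed among 1-gene probe sets (-0.54, adjusted p = 0.0222).

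Among the period genes, which carry the negative arm, Per2 read 7.73, 7.60 and 7.60 in controls and 7.17, 7.07 and 7.23 at 7 days (-0.49 ± 0.11, adjusted p = 0.173). These Per2 values did not overlap. The dimmer Per2 probe sets differed by -0.18 and -0.12, with overlapping groups. Per1 differed by -0.22 ± 0.15 and Per3 by -0.11 ± 0.18 in their brightest probe sets, and both overlapped. In its brightest probe set Per3 spread widely at 7 days, with 8.03, 8.49 and 8.72, against 8.55, 8.44 and 8.57 in controls. The sign of its difference turned with sex as a term (0.01) and with female arrays only (0.08). Dimmer Per3 probe sets were lower without overlap in 3 cases, at -0.41, -0.46 and -0.37, none past the threshold (adjusted p = 0.168, 0.230 and 0.251 among 1-gene probe sets). The remaining 2 differed by -0.10 and 0.16 with overlap.

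Of the other PAR bZIP factors, which bind the D-box as Dbp does, Tef differed by -0.12 ± 0.07 and Hlf by -0.16 ± 0.13 in their brightest probe sets, with overlapping groups. A dimmer Hlf probe set differed by 0.07 ± 0.11, also with overlap. A dimmer Tef probe set read 8.42, 8.27 and 8.08 in controls and 7.53, 7.53 and 7.64 at 7 days. Its values did not overlap, and it lay just outside the threshold among 1-gene probe sets (-0.69 ± 0.12, adjusted p = 0.0513). The mean over the Tef probe sets was -0.34. Nfil3, which represses through the same motif, was the largest positive difference of the list. It read 6.03, 6.67 and 6.75 in controls and 7.29, 6.91 and 7.36 at 7 days (0.70 ± 0.20, adjusted p = 0.265). Its groups did not overlap, and control replicate 1 was the lowest array. The E-box repressors Bhlhe40 and Bhlhe41 differed by -0.23 ± 0.15 and 0.06 ± 0.19. Nampt, the enzyme that limits NAD salvage, differed by -0.32 ± 0.13, and Tspan4 by -0.36 ± 0.11. The kinase gene Wee1 differed by 0.08 ± 0.05, with no overlap but a shift smaller than the median standard error. Usp2, Dtx4 and Leo1 differed by -0.10, 0.14 and -0.02.

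In the core clock list 10 genes were tested and 0 were called by limma. At an unadjusted p under 0.05, 1 was higher (Arntl) and 2 were lower (Cry2 and Csnk1e), against 5.97% and 5.21% of all genes. The median difference was 0.13. Arntl, the partner of CLOCK, read 6.59, 7.08 and 7.05 in controls and 7.68, 7.16 and 7.56 at 7 days (0.56 ± 0.17, adjusted p = 0.277), without overlap. Cry2, a repressor of that pair, read 8.56, 8.59 and 8.50 in controls and 8.39, 8.04 and 7.86 at 7 days (-0.45 ± 0.13, adjusted p = 0.277), also without overlap. A dimmer Arntl probe set differed by 0.17 ± 0.12, and its groups overlapped. Npas2, which can stand in for CLOCK, differed by 0.56 ± 0.35, and its 7-day values of 6.48, 5.33 and 5.84 overlapped the controls at 5.19, 5.82 and 4.97. Clock differed by 0.14 ± 0.09 and Cry1 by 0.19 ± 0.17. The kinase genes Csnk1d and Csnk1e, which mark period proteins for breakdown, differed by 0.14 ± 0.07 and -0.15 ± 0.07. Timeless, Btrc and Arntl2 lay between -0.01 and 0.11.

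**Figure D2:**
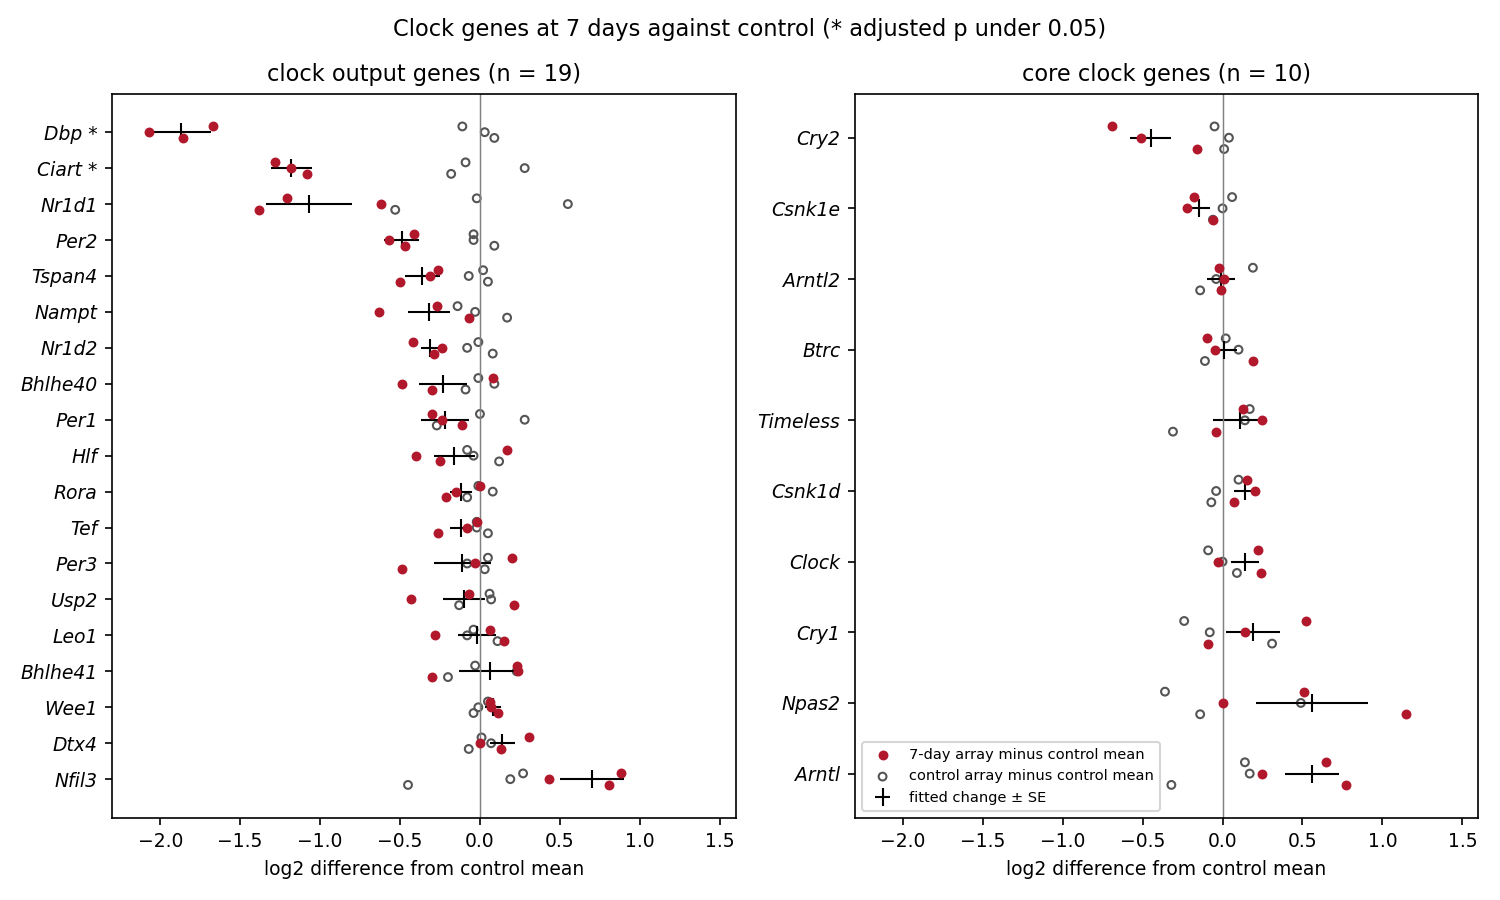
Log2 difference of each array from the control mean for 19 clock output genes (left) and 10 core clock genes (right); filled points are 7-day arrays, open points control arrays, and the cross is the fitted difference ± SE, with an asterisk at an adjusted p under 0.05. Dbp and Ciart are marked; Nr1d1, Per2, Nr1d2, Tspan4 and Cry2 also have all 7-day arrays below all controls, and Nfil3, Arntl and Wee1 have all above.

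The clock genes were also set against the other times after noise. The 7-day group differed from the immediate group in 272 genes (1.99%) and from the 1-day group in 1276 (9.35%), where all 3 animals at 1 day were male. Dbp at 7 days lay below the immediate group by -1.60 (adjusted p = 8.25e-04) and below the 1-day group by -1.39 (adjusted p = 0.00114). With female arrays only, the difference from the immediate group was as large but did not pass (adjusted p = 0.0614). Its values were 10.40, 10.19 and 10.22 immediately, 9.89, 10.21 and 10.08 at 1 day, and 9.61, 9.20 and 10.25 at 14 days. Each of these 9 values was above all 7-day values. The difference from 14 days, -1.01, did not pass (adjusted p = 0.504), and 14-day arrays spread over more than 1 log2 unit.

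Ciart at 7 days was lower than immediately (-0.68, adjusted p = 0.0153) and than at 1 day (-1.26, adjusted p = 5.56e-04). The first of these calls was lost with female arrays only (adjusted p = 0.0707) and without 7-day replicate 2 (0.0537). It read 7.76, 7.89 and 7.66 immediately, 8.10, 8.41 and 8.53 at 1 day, and 7.85, 7.57 and 7.69 at 14 days, so no other group reached down to the 7-day values. Against the immediate group, 5 of the 19 clock output genes were lower at 7 days and 1 was higher, where 1.30% and 0.689% of all genes passed in those directions. The lower ones were Dbp, Ciart, Per2 (-0.60), Nr1d2 (-0.41) and Bhlhe40 (-0.71), and the higher was Dtx4 (0.35). Against 1 day, 7 members were lower and 0 higher, where 4.22% and 5.13% of all genes passed. These were Dbp, Ciart, Nr1d1 (-1.31), Per2 (-1.05), Tspan4 (-0.84), Per1 (-0.57) and Bhlhe40 (-0.55). Of the core clock genes, Cry2 was lower than at 1 day (-0.60, adjusted p = 0.0150).

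Between 7 and 14 days 0 genes passed by limma, and 286 (2.10%) had an unadjusted p under 0.05. At 14 days against control 0 genes passed as well, with 1071 (7.85%) at an unadjusted p under 0.05. Neat1 was higher at 7 days than at 1 day by 0.87 (adjusted p = 9.90e-04), and the difference from the immediate group was -0.21 (adjusted p = 0.354). It read 10.14, 10.28 and 10.63 immediately, 9.08, 9.33 and 9.40 at 1 day and 9.92, 10.09 and 9.90 at 14 days. The 1-day values overlapped the controls, and those of the other 3 times lay above them.

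Genes just outside the threshold, with an adjusted p from 0.05 to 0.10, were named after their values were seen. Slc9a3r1, a scaffold protein also called NHERF1, read 9.54, 9.60 and 9.50 in controls and 9.21, 9.19 and 9.28 at 7 days (-0.32 ± 0.05, adjusted p = 0.0601). Shh, the Sonic hedgehog ligand, read 7.79, 7.78 and 8.07 in controls and 8.31, 8.75 and 8.49 at 7 days (0.64 ± 0.10, adjusted p = 0.0601). Neither gene overlapped between groups. For Shh the distance between the nearest arrays was smaller than the range within either group. Tcap, a sarcomere protein of striated muscle, read 7.12, 7.94 and 7.56 in controls and 5.94, 6.24 and 6.01 at 7 days (-1.48 ± 0.25, adjusted p = 0.0603). The 5 tested genes of a skeletal muscle list without Tcap lay between -0.34 and 0.10. Cd44, a receptor for hyaluronan, differed by -0.56 ± 0.09, Inmt, an amine methyltransferase, by -0.44 ± 0.08, and the ion channel gene Trpm3 by -0.42 ± 0.08. Dimmer probe sets of these genes did not all move alike. They differed by -0.45 to 0.43 for Trpm3, by -0.52 to -0.01 for Cd44, by -0.24 and -0.05 for Slc9a3r1 and by 0.14 for Shh. Acan, the main proteoglycan of cartilage, differed by -0.47 ± 0.09 (adjusted p = 0.0945). The next largest evidence for a rise was in Uchl1, a deubiquitinase of neurons, at 0.42 ± 0.08 (adjusted p = 0.140).

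Taken probe set by probe set, 18 of 26207 1-gene probe sets passed (0.0687%), 6 higher (0.0229%) and 12 lower (0.0458%), from 16 genes. Besides the genes above these included Rcan1, an inhibitor of calcineurin, with 8.67, 8.78 and 8.75 in controls and 9.26, 9.33 and 9.28 at 7 days (0.56 ± 0.08, adjusted p = 0.0154). Crebzf (0.52), Cplx1 (0.40), which encodes a regulator of synaptic vesicle release, and Meg3 (0.45), a long noncoding RNA, were also higher. Megf9 (-0.72), Birc6 (-0.49), Ddx46 (-0.41) and 2 probe sets of Resf1 (-0.55 and -0.61) were lower. For these 8 genes the called sets were not the brightest. The brightest ones differed in the same direction but by less, and did not pass: 0.21 for Rcan1, 0.19 for Crebzf, 0.06 for Cplx1, 0.15 for Meg3, -0.28 for Megf9, -0.20 for Birc6, -0.09 for Ddx46 and -0.40 for Resf1. Dbp and Resf1 each had more than 1 called probe set. Qk, the RNA-binding protein Quaking named in the study's title, read 11.28, 11.26 and 11.38 in controls and 11.24, 11.24 and 11.33 at 7 days (-0.04 ± 0.07, adjusted p = 0.894). Its 6 other probe sets differed by -0.43 to 0.06.

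The array also carries control probe sets for 18S ribosomal RNA, the RNA of the small ribosomal subunit, at its 5′ end, middle and 3′ end. In a fit over all probe sets, 16 of 45101 passed (0.0355%), 4 higher (0.00887%) and 12 lower (0.0266%), and 2 of the lower ones were 18S sets. The middle set read 11.91, 11.61 and 11.31 in controls and 10.68, 10.49 and 10.28 at 7 days, and fell by 1.13 ± 0.13 on the log2 scale (adjusted p = 0.00259). The 5′ set read 12.37, 12.07 and 11.82 in controls and 11.49, 11.04 and 11.00 at 7 days, and fell by 0.91 ± 0.13 (adjusted p = 0.0259). Neither set overlapped between groups, but the spread among the controls was about as wide as the gap to the 7-day arrays, or wider. The 3′ set read 9.67, 9.41 and 9.19 in controls and 9.32, 9.07 and 8.97 at 7 days, and did not pass (-0.30 ± 0.15, adjusted p = 0.523).

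The 5′ call was lost without control replicate 1 (adjusted p = 0.115) or 2 (0.152) and without 7-day replicate 2 (0.0960) or 3 (0.114). Taken alone, the 3 arrays against 3 gave an exact two-sided permutation p of 0.1 for the 5′ and middle sets, the smallest such a design allows. At 7 days the middle set was also lower than immediately after noise (-1.24, adjusted p = 1.90e-04) and than at 1 day (-0.89, adjusted p = 0.00187). At 14 days it read 11.11, 10.81 and 10.77 (-0.71 against control, adjusted p = 0.233).

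The ends of the 18S RNA did not move alike. The 3′ minus 5′ difference was -2.66 ± 0.04 (SD, n = 3) in controls and -2.06 ± 0.10 (SD, n = 3) at 7 days, a shift of 0.61 (exact permutation p = 0.1). The transferrin receptor control sets gave 0.55 ± 0.07 (SD, n = 3) and 1.03 ± 0.20 (SD, n = 3), a shift of 0.48 (exact permutation p = 0.1). Those of beta-actin gave 0.54 and 0.48 and those of Gapdh -0.22 and -0.27, shifts of -0.06 each (exact permutation p = 0.200 for each). Immediately, at 1 day and at 14 days, the difference was -2.94, -2.48 and -2.12 for 18S and 0.27, 0.87 and 0.98 for transferrin receptor. The transferrin receptor 5′ and middle sets were lower at 7 days than in controls without overlap, by -0.85 and -0.69. Neither passed by limma (adjusted p = 0.0862 for each), and the 3′ set differed by -0.37 with overlap. Of the 45 sets for bacterial and phage RNA used as spike-in controls, the 18 bio and cre sets had group means from 8.23 to 14.17 and differences from -0.05 to 0.26. Among them 0 passed by limma, and 0 had an unadjusted p under 0.05. The other 27 (dap, lys, phe, thr and trpn) had group means of 2.45 to 4.37, below the 4.70 under which genes were left out, so their lack of calls tests nothing. Of 21 genes for ribosomal RNA synthesis, such as the factors that drive and process the ribosomal transcript, 0 were called and the median was 0.00. The part of these 3′ to 5′ shifts in the 18S result was not tested.

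**Figure D3:**
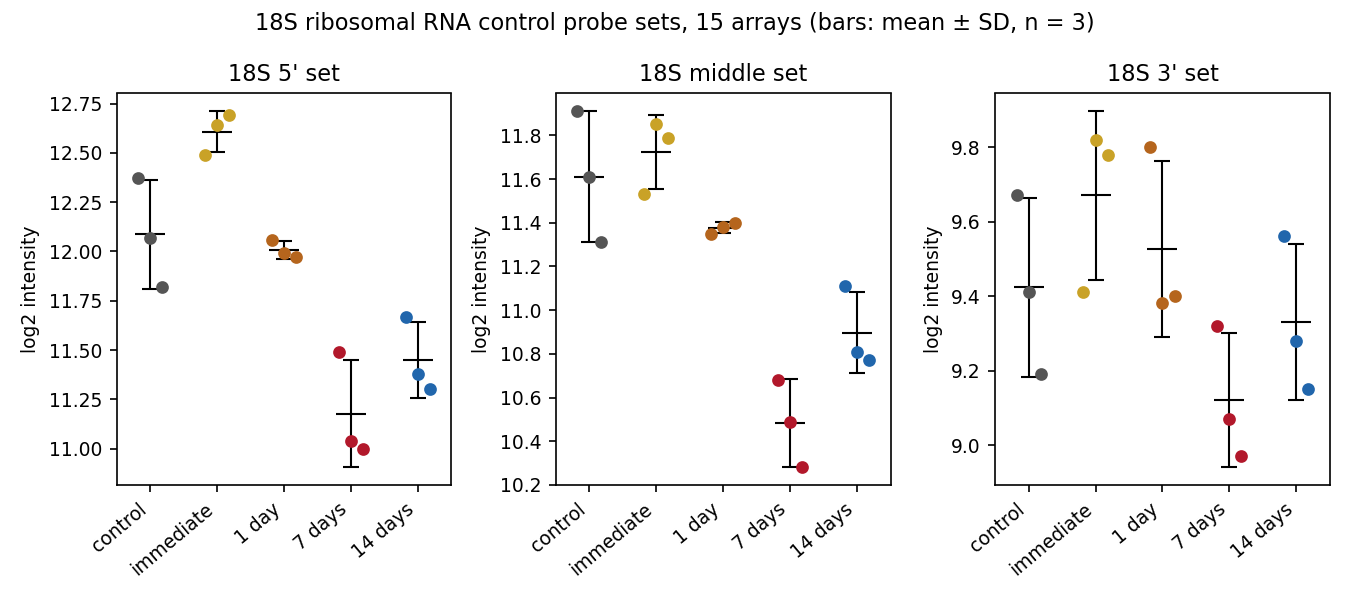
Log2 intensity of the 3 control probe sets for 18S ribosomal RNA on all 15 arrays, by group, with 1 point per animal, and mean ± SD (n = 3); the vertical axes differ between panels. The 7-day arrays lay between 10.28 and 10.68 in the middle set, below all controls, and overlapped the controls in the 3′ set.

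Outside both clock lists, 32 further gene lists were read, and 0 of their tested members passed by limma. The lists held 503 distinct genes together with those of the clock, of which 416 were tested. Peripheral myelin and Schwann cell genes had a median of 0.16 over 16 tested, with 6 higher and 0 lower at an unadjusted p under 0.05, against 5.97% and 5.21% of all genes. Without overlap between groups, 3 were higher and 0 lower, against 8.19% and 4.57% of all genes. Sox10, which drives Schwann cell identity, read 9.72, 9.63 and 9.59 in controls and 9.75, 10.24 and 10.38 at 7 days (0.48 ± 0.16, adjusted p = 0.322). Gjb1, the gap junction protein of myelin, differed by 0.51 ± 0.14 (adjusted p = 0.257), while the major myelin genes Pmp22 and Mbp differed by -0.02 and 0.02. The 24 spiral ganglion neuron genes had a median of 0.00, and the 25 macrophage genes 0.04.

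Interferon response genes had a median of 0.32 over 15 tested, and 7 had 7-day arrays all above the controls, against 8.19% of all genes. At an unadjusted p under 0.05 by limma, 1 was higher and 0 were lower, against 5.97% and 5.21% of all genes. Usp18, which dampens interferon signalling, read 5.40, 5.27 and 5.61 in controls and 6.31, 6.19 and 6.53 at 7 days (0.92 ± 0.65, adjusted p = 0.633). Its standard error is large beside the spread of these 6 arrays because the fit pools all 15, and interferon genes had a median SD of 0.762 at 14 days against 0.157 in controls. All 12 tested antigen presentation genes had positive differences, with a median of 0.25. Their median member lay at 0.50, -0.09 and 0.31 from the control mean in 7-day replicates 1, 2 and 3, and between -0.12 and 0.07 in controls. Without overlap between groups, 1 was higher and 0 lower, against 8.19% and 4.57% of all genes. Cd74, the invariant chain of class II molecules, differed by 0.44 ± 0.20 (adjusted p = 0.430).

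Lists of stress and injury genes had 0 calls by limma. Their medians were positive for heat shock, immediate early, unfolded protein and axon injury genes and -0.05 over 12 for antioxidant genes. Heat shock genes had a median of 0.11 over 14, with 5 above and 1 below all controls, against 8.19% and 4.57% of all genes. The constitutive chaperone Hspa8 read 12.91, 12.92 and 13.04 in controls and 13.10, 13.31 and 13.31 at 7 days (0.28 ± 0.06, adjusted p = 0.173). The immediate early genes had a median of 0.18 over 18, and Fos differed by 1.03 ± 0.43 (adjusted p = 0.392). In the axon injury list Vgf, a neuropeptide precursor, read 4.68, 4.30 and 4.81 in controls and 5.19, 6.61 and 5.81 at 7 days (1.27 ± 0.34, adjusted p = 0.253). Gadd45a, a growth arrest gene, read 6.95, 6.97 and 6.95 in controls and 7.10, 8.12 and 8.14 at 7 days (0.83 ± 0.23, adjusted p = 0.266). Cholesterol synthesis genes had a median of 0.09 over 19, with 6 above and 1 below all controls, against 8.19% and 4.57% of all genes. Fdps, which makes farnesyl pyrophosphate, differed by 0.30 ± 0.06 (adjusted p = 0.163).

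Lists for tissue around the nerve and for blood cells had 0 calls by limma, and their medians differed in sign. Endothelial genes (0.06), organ of Corti support and fibrocyte genes (0.03), skeletal muscle genes (0.01) and T cell genes (0.00) were not below 0, against 0.01 over all genes. Cartilage and tendon genes had a median of -0.35 over 10. Of these, 3 (Acan, Ucma and Tnmd) lay below all controls and 1 above, against 4.57% and 8.19% of all genes. Tnmd, a tendon protein, read 7.06, 7.50 and 7.52 in controls and 6.94, 6.74 and 6.84 at 7 days (-0.52 ± 0.13, adjusted p = 0.223). All 10 tested bone genes had negative differences, with a median of -0.27. Their median member lay at -0.38, -0.21 and 0.55 from the control mean in control replicates 1, 2 and 3, so control replicate 3 was the high array. In 7-day replicates 1, 2 and 3 it lay at -0.49, -0.56 and -0.10. All 8 tested neutrophil genes also had negative differences, with a median of -0.85, but their median SD in controls was 1.49. The neutrophil protein gene S100a8 read 6.88, 8.20 and 10.82 in controls and 7.18, 6.98 and 8.56 at 7 days, so the groups overlapped and 1 control array, replicate 3, was far above the rest. The part of these tissues and cells in the results above was not tested.

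**Figure D4:**
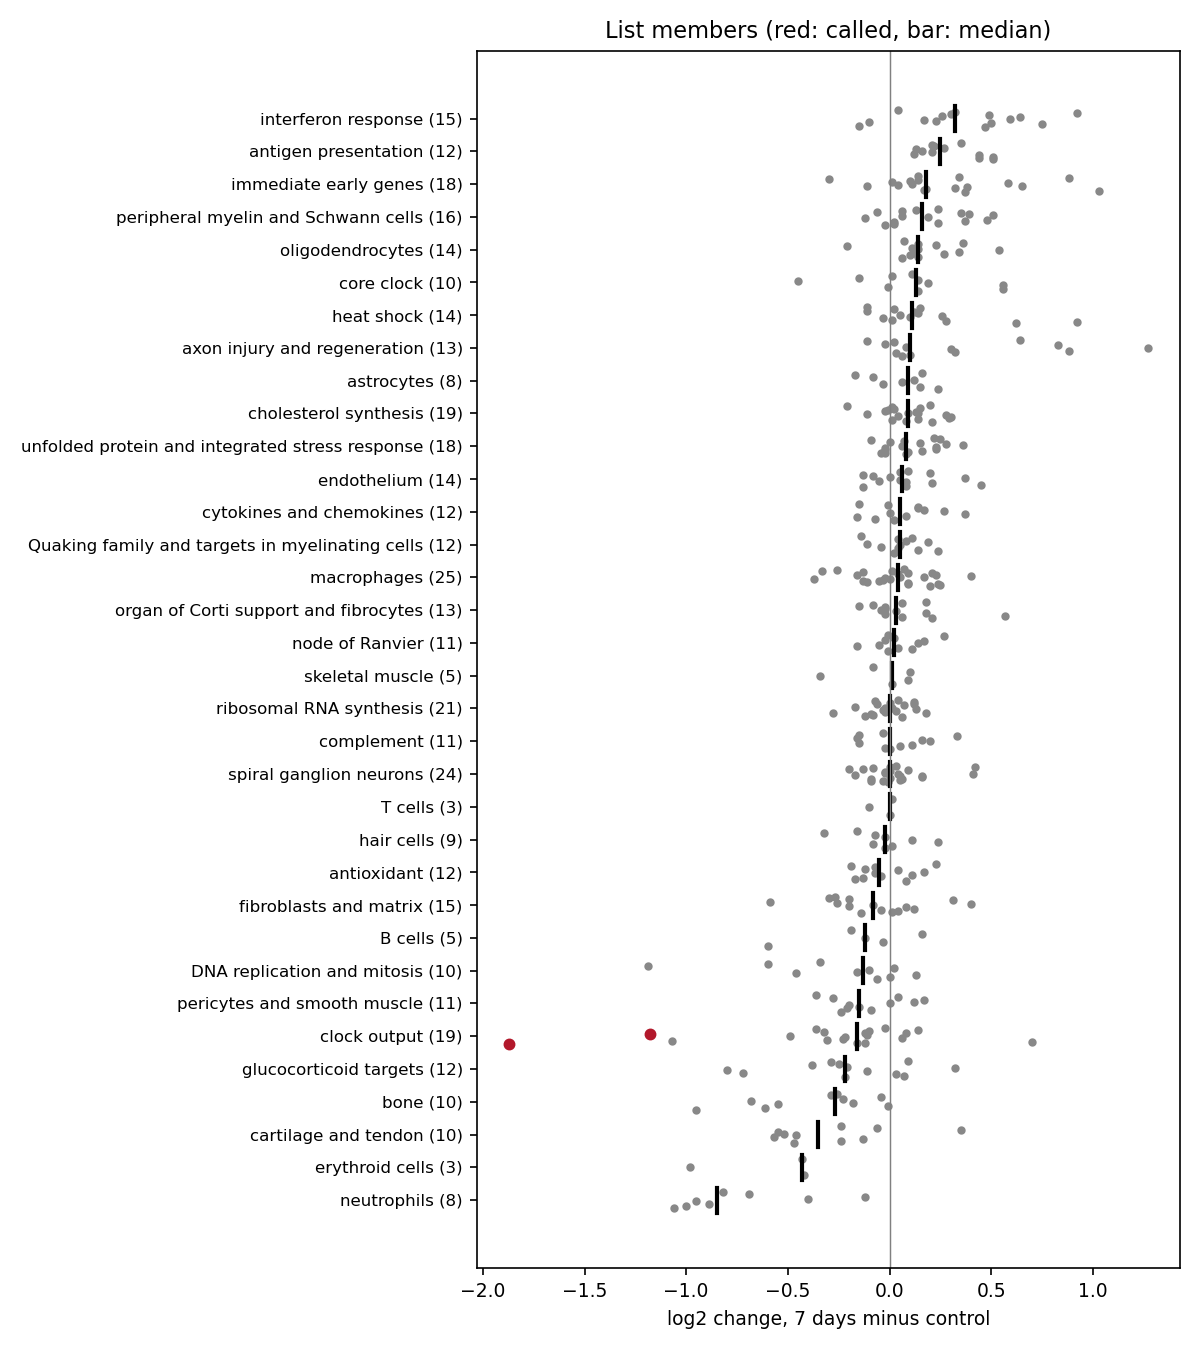
Log2 difference at 7 days against control for every tested member of 34 gene lists, with the number tested in brackets and a vertical bar at the median; red points passed an adjusted p of 0.05. Dbp and Ciart in the clock output list are the red points, and the neutrophil list has the lowest median at -0.85.

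By the median over genes, replicates spread more at 7 days than in any other group. Controls were all female and the 1-day group all male, while the other groups held both sexes. Genes that differ by sex therefore add to the SD only in the mixed groups, and their part was not tested. The median SD over genes was 0.129 at 7 days, 0.0896 in controls and between 0.0874 and 0.0954 in the other 3 groups. The 7-day group had the largest SD of the 5 for 5159 genes (37.8%), while each other group had it for 13.0 to 17.5%. An SD above 0.5 was found for 242 genes at 7 days, 129 in controls and 81 to 175 elsewhere. The groups were more alike for an SD above 1, found for 25 genes at 7 days, 23 in controls and 14 to 26 elsewhere. All 3 arrays of the 7-day group took part. Replicates 1, 2 and 3 lay at root mean square distances of 0.242, 0.267 and 0.244 from the mean of the other 2, and the 12 other arrays at 0.163 to 0.212 from theirs. Replicate 2 had the most genes over 0.5 away, 782, against 442 and 543 for replicates 1 and 3 and 142 to 349 for the other arrays. Its lower quartile, 4.28, was the highest of the 15 arrays, and it had the lowest weight of all arrays, 0.479, where an average array weighs about 1.

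**Figure D5:**
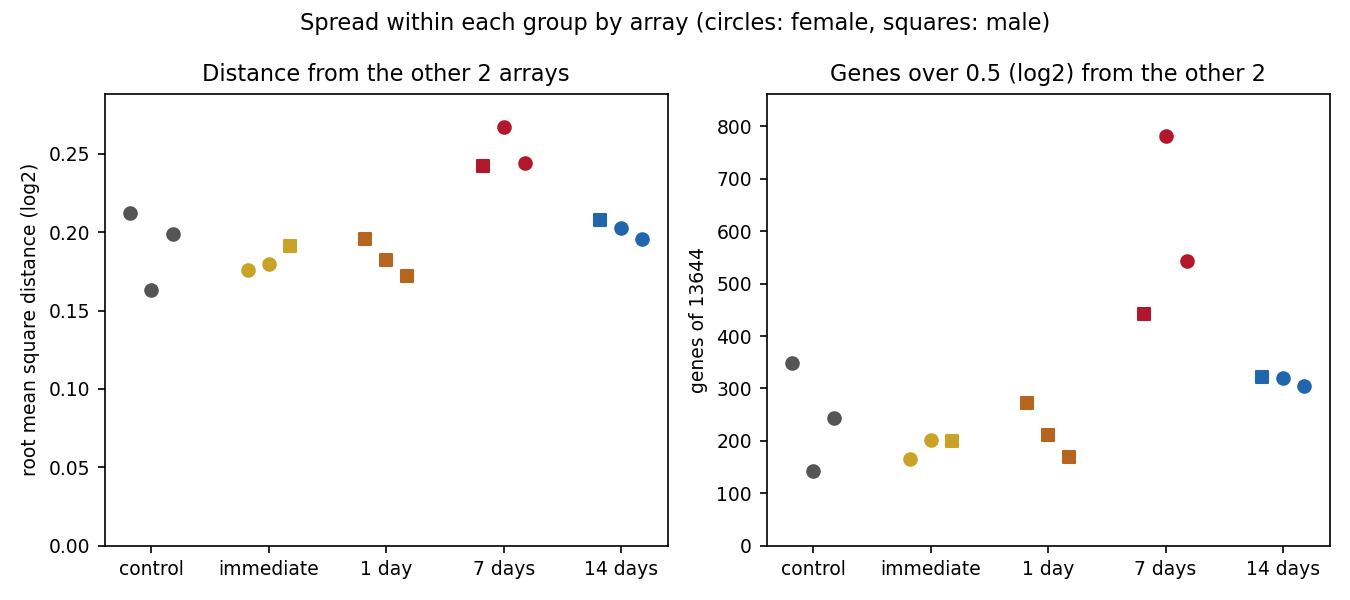
Left, the root mean square log2 distance of each array from the mean of the other 2 arrays of its group over 13644 genes; right, the number of genes more than 0.5 away; circles are females and squares males. The 7-day arrays are the highest in both panels, at 0.242 to 0.267 and at 442 to 782 genes.

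The 20 genes with the largest SD at 7 days, sex-linked genes aside, were named after their values were seen. Xist and Eif2s3y, which mark sex, are not among them and read 5.20, 12.07 and 12.05, and 9.16, 3.59 and 3.22, at 7 days. In the 20, 7-day replicate 3 was the highest of the 3 arrays in 18 and replicate 2 the lowest in 14. Of the 100 genes with the largest SD, replicate 3 was highest in 81 and replicate 2 lowest in 78. Over all genes replicate 3 was highest in 4631 of 13644 and replicate 2 lowest in 5919. Prl and Gh, hormones of the pituitary gland, were among the 20. Prl read 4.04, 8.02 and 8.96 at 7 days and Gh 6.34, 8.37 and 8.92. Replicate 1, the only male at 7 days, was the low array for both. Over all 15 arrays, males read 4.04 to 7.59 and females 6.56 to 8.96 for Prl, while Gh overlapped widely between the sexes. G530011O06Rik, also among the 20, read 5.61 to 6.38 in males and 3.59 to 4.32 in females, so it separated by sex in every group. Bpifa1 and Cyp2f2, genes of airway-type epithelium, read 11.40, 8.57 and 12.56 and 7.62, 4.96 and 9.45. Not all of the 20 spread most at 7 days. The SD of Bpifa1 was 2.05 at 7 days, 3.48 in controls and 2.52 at 14 days, while that of Prl was largest at 7 days (2.61). Slc47a1, a transporter, read 10.07, 8.30 and 11.31.

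Tecta and Otog, which encode proteins of the gel membranes over the sensory cells of the inner ear, read 5.01, 4.83 and 6.83 and 7.72, 8.16 and 9.73 at 7 days, highest in replicate 3. Penk, an opioid precursor, read 7.55, 5.48 and 8.96, and Gad1, the enzyme that makes the transmitter GABA, 4.19, 4.08 and 6.62. By list, the median SD was higher at 7 days than in controls in 21 of 34. Hair cell genes had a median SD of 0.516 at 7 days against 0.150 in controls, organ of Corti support genes 0.308 against 0.140, spiral ganglion neuron genes 0.173 against 0.0918 and endothelial genes 0.283 against 0.115. Otof, a synaptic protein of hair cells, read 6.86, 7.14 and 7.86 at 7 days and 7.26, 7.47 and 7.36 in controls. The opposite order was found in 13 of the 34 lists, among them neutrophil genes (0.520 at 7 days against 1.49 in controls), erythroid genes (0.225 against 0.640), bone genes (0.341 against 0.564), oligodendrocyte genes (0.243 against 0.413), DNA replication genes (0.135 against 0.362) and cholesterol synthesis genes (0.0755 against 0.0850).

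The number of calls changed with single arrays left out. Without 7-day replicate 1, the male, 50 genes passed (14 higher and 36 lower), Dbp, Ciart and Neat1 among them. Without 7-day replicate 2 or 3, 2 genes passed each time, Dbp and Ciart. Without control replicate 3, 5 genes passed, and without control replicate 1 or 2, 4 and 3. Dbp and Ciart were called without any single array of the 6, with Dbp between -1.97 and -1.77 and Ciart between -1.27 and -1.04. Female arrays alone, which leave out the all-male 1-day group, gave 3 calls: Ciart, Gadd45a and Polr3f, with Dbp at -1.87 (adjusted p = 0.0590).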

How the data were processed

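RNA of 15 auditory nerve samples was read on Affymetrix mouse arrays, and the authors deposited 1 table of log2 values from 2.06 to 14.63, with 0 missing. Per the submitters' processing notes, Affymetrix Expression Console, RMA and MAS5 were used. Which of them made these values, and their versions, are not given in the sources used here. At most 3.67% of values were identical between any pair, so each array counted as 1 sample. No further normalization was applied. The platform annotation gave 1 gene for 34945 of 45101 probe sets, several for 932 and none for 9160, beside 64 control sets. Gene IDs of 34741 were found in RefSeq (GRCm38.p6), and 0 symbols were updated. Each gene was read by its probe set of highest mean over all arrays. Genes at or below 4.70, the lowest 25%, were left out.

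All 15 arrays entered 1 fit of group means in R 4.3.3 with limma 3.58.1 (functions lmFit and eBayes, with trend), with 10 residual degrees of freedom and Benjamini-Hochberg adjustment over all genes tested within a contrast. Tests are two-sided. A separate fit over all 45101 probe sets served the control sets, and a fit over 26207 1-gene probe sets the counts by probe set. Errors beside differences are standard errors. Figures and promoter searches used Python 3.11.15. The functions were tested on simulated data.

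The genes named by rule were the called genes whose groups did not overlap, at most 12 per direction, or the 3 of smallest p where fewer than 3 were called, every tested clock gene, and Qk. The members and lists were chosen with earlier results of these data known. Of 521 list memberships, 38 had no 1-gene probe set and 432 were tested. Alternatives were sex as a term, female arrays only, 2 other filters, the mean over probe sets or each by itself, eBayes without trend or robust, weighted arrays, a replicate block, a fit of the 2 groups alone, 2 normalizations, leaving out single arrays, and a change of 1.5-fold at an unadjusted p.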

Additional observations from a re-analysis of the deposited data

Results flagged for a closer look

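Several named genes differed between the 7-day group and another time after noise by a test of that difference (limma, adjusted over 13644 genes). Against the immediate group, Dbp differed by -1.60 (adjusted p = 8.25e-04), Ciart by -0.68 (adjusted p = 0.0153) and Slc9a3r1 by -0.32 (adjusted p = 0.00646). With female arrays only, the first 2 did not pass (adjusted p = 0.0614 for Dbp and 0.0707 for Ciart). Against 1 day, Dbp differed by -1.39 (adjusted p = 0.00114), Ciart by -1.26 (adjusted p = 5.56e-04) and Slc9a3r1 by -0.48 (adjusted p = 5.56e-04), while Neat1 differed by 0.87 (adjusted p = 9.90e-04) and Shh by 0.40 (adjusted p = 0.0291). For each of these genes and contrasts the 3 arrays of 7 days lay on 1 side of the 3 arrays of the other time. All animals at 1 day were male and 1 of 3 at 7 days was, so sex and time are partly confounded in the second set. Groups of 3 arrays are too small for a test of single outlying arrays.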

How the results depend on the processing

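With 3 genes called as reported, the count was 7 with the lowest 50% of genes left out, 16 genes with each probe set by itself, 1 (Dbp) with only the 2 groups compared, 58 at an unadjusted p with 1.5-fold, and from 2 to 50 with single arrays left out. Sex as a term, the mean over probe sets, eBayes without the trend and array weights each called Dbp and Ciart without Neat1. Ciart had an adjusted p of 0.0697 by limma with only the 2 groups. Clock output calls, 2 as reported, were 1 with female arrays only and with only the 2 groups, and 4 at the unadjusted threshold. The median SD at 7 days was 0.112 with the lowest 50% left out, still the highest of the 5 groups. The 5′ set of 18S, at -0.91, was not called without the trend (adjusted p = 0.0702), with robust eBayes (0.0643) or with only the 2 groups (0.287), and ranged from -1.07 to -0.77 with single arrays left out. The middle set, at -1.13, was not called with only the 2 groups (0.141) and ranged from -1.28 to -0.98. Of 39 genes followed, 32 kept their sign in every alternative run, and 7 clock genes, none of them called, turned. Per3 was 0.01 with sex as a term, 0.08 with female arrays and from -0.26 to 0.08 with single arrays left out. Btrc was -0.02, -0.08 and -0.03 (sex, female arrays, array weights) and from -0.08 to 0.07, and Leo1 was 0.03 with array weights and from -0.11 to 0.11. Left-out ranges were -0.25 to 0.07 for Usp2, -0.04 to 0.20 for Timeless, -0.04 to 0.23 for Bhlhe41 and -0.08 to 0.08 for Arntl2. The causes of these changes were not tested. With the replicate number as a block 3 genes were called, and the 5′ and middle sets of 18S had adjusted p of 0.00427 and 0.00265 by limma. Same-numbered control and 7-day arrays deviated with correlations of 0.27, 0.19 and 0.07, and differently numbered ones with -0.22 to 0.08. The numbers were not taken as pairs in the main fit, and whether they mark pairs was not tested. Near background, array signals can compress, so differences of dim genes such as Vgf may be understated, which was not tested.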

Other observations

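Single control arrays also stood apart for genes of other tissues. Bpifa1, a secreted protein of airway-type epithelium, read 6.78, 12.51 and 13.06 in the 3 controls, and Cyp2f2, an enzyme of such epithelium, 7.06, 8.97 and 9.38, so control replicate 1 was low for both. S100a9, a protein of neutrophil granulocytes, read 6.32, 7.61 and 10.49 in controls and 6.68, 6.38 and 8.37 at 7 days, and control replicate 3 was the highest of the 6. Mog, a myelin protein of oligodendrocytes, read 7.01, 6.19 and 5.36 in controls and 6.27, 5.87 and 6.59 at 7 days. Gene lists differed in this way as well: the median member of the oligodendrocyte list lay at 0.30, 0.13 and -0.48 from the control mean in control replicates 1, 2 and 3, and that of the bone list at -0.38, -0.21 and 0.55.

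The glucocorticoid target list, whose genes respond to the adrenal hormone through its receptor, had a median of -0.22 over 12 tested genes and 0 calls by limma, with 1 gene higher and 2 lower at an unadjusted p under 0.05, against 5.97% and 5.21% of all genes. Zbtb16, a transcriptional repressor, differed by -0.80 ± 0.36 (adjusted p = 0.433), Fkbp5, a co-chaperone of the receptor, by -0.72 ± 0.37 (adjusted p = 0.496), and Cdkn1a, a cell cycle inhibitor, by 0.32 ± 0.12 (adjusted p = 0.348). Smooth muscle and pericyte genes had a median of -0.15 over 11, with 3 below and 0 above all controls, against 4.57% and 8.19% of all genes. Mylk, the myosin light chain kinase, read 8.85, 8.83 and 8.88 in controls and 8.56, 8.37 and 8.56 at 7 days (-0.36 ± 0.07, adjusted p = 0.158).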
